A study of Mus musculus with 32 samples.

Results

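Whole blood of wild-type mice taken 24 h after 8 Gy of X-rays was compared with blood of sham-irradiated wild-type mice. The comparison holds 11 of the 32 arrays of a study on mice with and without defects in DNA repair. Its members were chosen by their labels as the 5 arrays titled WT 8 Gy and the 6 arrays titled WT 0 Gy, and every gene whose signal passed a detection filter was described. Each array carries the RNA of an individual mouse, so the spread within a group is between animals. All mice of the study were male C57BL/6 animals per the labels, and the wild-type groups carried no engineered allele. The sham group went through mock irradiation. Per the design text the dose is the median lethal dose for survival over the following month. Blood was drawn by cardiac puncture into tubes that preserve RNA, treated with DNase and depleted of globin transcripts before labelling with Cy3. The other groups, used here only at the end, were ATM-/- mice (titled ATM-KO) at 0 Gy (5 arrays) and 4 Gy (6 arrays), and Scid mice at 0 Gy and 3 Gy (5 arrays each). ATM is the kinase that signals DNA double-strand breaks to p53, and Scid mice carry a defect in the kinase subunit of the end-joining machinery.

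Ionizing radiation breaks both strands of DNA. The breaks activate the transcription factor p53, which induces genes that stop the cell cycle, start apoptosis and feed back on p53 itself. In blood, dividing precursors and lymphocytes are the most sensitive cells, and the bone marrow stops delivering reticulocytes, the youngest red cells, which still carry RNA for the red cell membrane and for haem synthesis. Mature erythrocytes have no nucleus and little RNA. Interferon-stimulated genes are induced through STAT and IRF factors and defend cells against viruses, and part of the response to damaged DNA in the cytosol runs through them. Because the samples are whole blood, fewer cells of a type and less RNA per cell cannot be told apart in any of the values that follow.

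Promoter sequences are shown for members of 3 gene groups whose regulators have a known binding motif: interferon effectors, p53 targets and red cell genes. They come from RefSeq (build GRCm38.p6), and each window of at most 120 bases was taken from the 250 bases before a gene's start. A promoter was held for 126 of the 172 genes that rose and 391 of the 619 that fell by the criteria given below. The interferon-stimulated response element was searched on both strands as TTTC, any 2 bases and TTTC again, so that its reverse complement reads GAAA, any 2 bases, GAAA, and overlapping matches were allowed. It was found in 3.46% of all 27025 genes with a promoter, in 11 of the 126 (8.73%) and in 16 of the 391 (4.09%). In the windows below capitals mark its matches. Ifit3 (chr19:34583352-34583471, plus strand) and Oas1a (chr5:120907526-120907594, minus strand) rose after irradiation, while Isg15 (chr4:156200820-156200939, minus strand) and Rsad2 (chr12:26456508-26456627, minus strand) fell, although the motif is present in all 4.
Ifit3: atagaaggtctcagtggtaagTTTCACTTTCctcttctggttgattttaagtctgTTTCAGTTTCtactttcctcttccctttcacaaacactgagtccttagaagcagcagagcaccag
Oas1a: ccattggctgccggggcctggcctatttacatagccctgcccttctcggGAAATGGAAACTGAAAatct
Isg15: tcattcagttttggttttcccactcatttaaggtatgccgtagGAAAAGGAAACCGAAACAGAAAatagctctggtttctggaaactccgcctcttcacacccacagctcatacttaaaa
Rsad2: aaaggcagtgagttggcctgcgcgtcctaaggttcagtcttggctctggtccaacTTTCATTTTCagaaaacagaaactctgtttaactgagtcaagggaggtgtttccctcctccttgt

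The p53 response element was searched as a single 10-base arm of its consensus, on both strands. Such an arm was found in 8.2% of all promoters, in 13 of the 126 genes that rose (10.32%) and in 23 of the 391 that fell (5.88%). Among the growth arrest and apoptosis targets of p53 it was present in 5 of the 10 that rose (Aen, Bax, Ccng1, Cdkn1a and Ei24), in the 1 that fell (Gadd45a) and in 1 of the 13 that passed neither way (Siva1). The windows of Cdkn1a (chr17:29090873-29090978, plus strand), Bax (chr7:45467035-45467148, minus strand) and Aen (chr7:78895882-78896001, plus strand) are shown because these 3 genes were among the clearest rises of the group, with the arms in capitals. Cdkn1a and Aen each have 2 annotated promoters, and only the first by position with a match is shown.
Cdkn1a: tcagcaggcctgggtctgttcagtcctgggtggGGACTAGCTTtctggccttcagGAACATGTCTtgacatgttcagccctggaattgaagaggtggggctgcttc
Bax: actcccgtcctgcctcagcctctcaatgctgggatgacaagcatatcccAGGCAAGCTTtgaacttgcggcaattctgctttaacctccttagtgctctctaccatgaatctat
Aen: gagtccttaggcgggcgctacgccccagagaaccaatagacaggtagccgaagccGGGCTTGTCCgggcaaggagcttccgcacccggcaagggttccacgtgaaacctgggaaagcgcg

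The GATA factor site, bound by the erythroid regulator GATA1, was searched as AGATAA on both strands (reverse complement TTATCT) and was found in 11.43% of all promoters, in 8 of the 126 (6.35%) and in 44 of the 391 (11.25%). Among the red cell membrane and haem genes it was present in 6 of the 13 that fell (Alas2, Epb42, Icam4, Kel, Rhd and Trim10) and in 1 of the 14 that passed neither way (Tal1). The windows of Epb42 (chr2:121037041-121037127, minus strand), Rhd (chr4:134864436-134864535, plus strand) and Alas2 (chrX:150547274-150547393, plus strand) carry it in capitals, and these genes fell by very different amounts, as described below. A match to these letters is a description of the window and does not show that the factor binds there.
Epb42: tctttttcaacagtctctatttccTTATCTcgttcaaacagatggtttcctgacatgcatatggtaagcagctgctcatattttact
Rhd: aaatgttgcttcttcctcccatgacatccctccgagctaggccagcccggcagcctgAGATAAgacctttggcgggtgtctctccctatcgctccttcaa
Alas2: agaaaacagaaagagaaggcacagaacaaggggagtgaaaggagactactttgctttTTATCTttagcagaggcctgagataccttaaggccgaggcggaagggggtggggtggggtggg

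Between 28.02 and 53.28% of the probes were well above background on the sham arrays and between 45.73 and 58.62% on the irradiated arrays. The group means were 40.74% ± 9.91 (SD, n = 6) and 52.21% ± 5.49 (SD, n = 5), an exact two-sided permutation p of 0.0563, where the smallest this design allows is 0.00433. Levels are log2 processed signals relative to the 75th percentile, on the same array, of the 5829 probes well above background on all 32 arrays, so a level of 0 is that of a bright probe and most genes have negative levels. Scaling to the 75th percentile of all probes instead lowered every difference by about 0.43 on the log2 scale. The median difference over all 15156 genes was 0.41 with the first scaling and -0.02 with the second. A gene is therefore said to have risen or fallen only if its adjusted p in limma was under 0.05 in the same direction with both scalings. Transcripts of liver, such as albumin, were bright on the sham array of replicate 5 and on the irradiated arrays of replicates 1 and 2, and results that rest on those arrays are given with and without them.

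After 8 Gy, most of the red cell membrane genes and some genes of division fell, and some targets of p53, interferon effectors and macrophage and acute phase genes rose. With the first scaling limma called 1401 genes (9.24%), of which 782 were higher (5.16%) and 619 lower (4.08%). With both scalings 172 genes rose (1.13%) and 619 fell (4.08%). A probe well above background on every wild-type array was held for 43 of the 172 and 537 of the 619. With only such probes tested, the 43 and the 537 were all still called. Most rises, but few falls, thus rest on probes that were not well above background on every wild-type array. The arrays of the groups did not overlap for 102 of the 172 and for 434 of the 619, where over all genes the irradiated arrays lay apart above for 4.96% and apart below for 3.45%. Differences above 4-fold were found for 116 of the 172 and 239 of the 619. Of the 782 genes called higher with the first scaling, 37 were well above background on no sham array. These 37 passed the detection filter through another group, which can be the irradiated wild-type group itself. For such genes the filter is not independent of the rise. With normexp background correction 281 of the 619 falls but 5 of the 172 rises were still called, and with scaling to spike-in probes 162 falls and all 172 rises were. With each slide as a block 357 and 64 were, with the share of probes above background as a covariate 398 and 74, and without the arrays bright in liver transcripts 444 and 111. Leaving out 1 array at a time kept 471 to 615 of the falls and 136 to 172 of the rises.

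**Figure D1:**
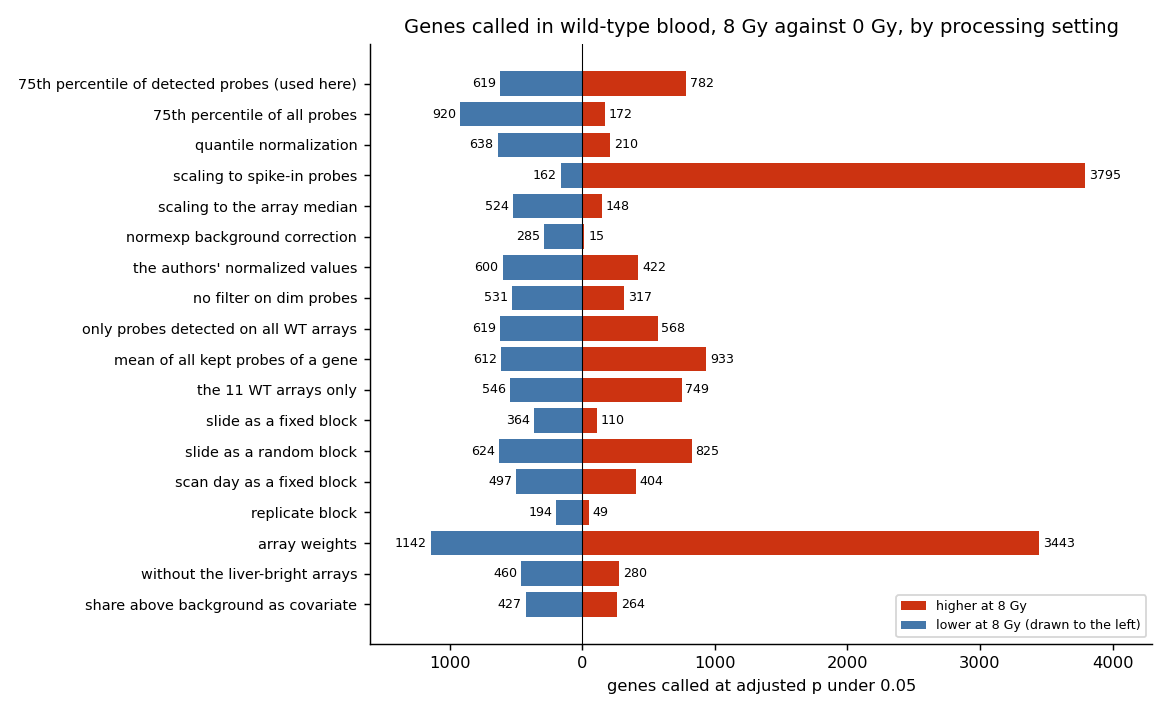
Number of genes called higher and lower (limma, adjusted p under 0.05) in wild-type blood after 8 Gy under each processing setting. The main scaling gave 782 higher and 619 lower genes, scaling to the 75th percentile of all probes 172 and 920, and normexp background correction 15 and 285.

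Targets of p53 that arrest growth or start apoptosis were higher after 8 Gy. Of the 13 tested growth arrest targets 6 rose and 1 fell, and of the 20 tested apoptosis targets 6 rose and none fell, against 1.13% and 4.08% of all genes. The median difference, relative to that of all genes, was 1.14 on the log2 scale for the growth arrest targets and 0.87 for the apoptosis targets. With the first scaling the means of all 20 apoptosis targets were higher after irradiation, where the median difference of all genes was itself 0.41. Over probes well above background on all 11 arrays the growth arrest median was -0.43, without the irradiated array of replicate 2 it was 0.70, and with the share of probes above background as a covariate 0.32. Cdkn1a, which encodes the cyclin-dependent kinase inhibitor p21, had log2 levels of -2.54, -2.93, -3.05, -1.62 and -2.77 on the irradiated arrays against -7.97, -6.74 and -6.24 (lowest, median, highest) on the sham arrays. All 5 irradiated arrays lay far above all 6 sham arrays, of which 3 had a signal well above background. The difference was 4.29 ± 0.54 (SE), or 19.6-fold, with an adjusted p of 2.35e-06 in limma. Its probe lies at chr17:29237377-29237436 in build mm9, and a further probe of the gene differed by 2.29 in the same direction.

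Bax, the pore-forming apoptosis effector, had levels of -0.96, -2.06, -2.25, -1.48 and -1.55 after 8 Gy against -4.18, -3.69 and -3.22 in the sham group. The groups did not overlap and all 11 arrays had a signal well above background, with a 4.03-fold difference (2.01 ± 0.33, adjusted p 9.38e-05). Aen, a nuclease induced by p53 that degrades DNA in apoptosis, had -1.96, -2.15, -2.52, -2.45 and -2.46 against -6.42, -5.28 and -3.77, a 7.34-fold difference without overlap (adjusted p 1.44e-04). Further rises without overlap were those of Phlda3, an inhibitor of AKT signalling (2.71), Tnfrsf10b, the TRAIL receptor (2.04), and Bbc3, the BH3-only protein PUMA (1.78). Ei24 rose by 2.58 with overlapping groups. Fas, the death receptor, differed by 1.57 but passed with the first scaling only, and Trp53inp1 (1.37, adjusted p 0.0580) passed with neither.

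Among the growth arrest targets, Zmat3, an RNA-binding tumour suppressor, rose by 2.64 and Ccng1, the cyclin G1 gene, by 2.54, both without overlap. Gas6, a ligand of the TAM receptors counted in this list, rose by 3.46 with overlapping groups. Its call was lost without the irradiated array of replicate 1 and with scan day as a block (adjusted p 0.104 in limma). Outside the rule for naming genes, and chosen after their values were seen, Plk2 was at least 1.43-fold higher and Gtse1 at least 1.23-fold higher, as no sham array had a signal well above background for either. Gadd45a, also chosen after its values were seen, went the other way. It encodes a damage-induced protein of growth arrest, and its levels were -2.76, -3.13, -2.0, -1.85 and -1.63 after irradiation against -1.21, -0.48 and 0.15 in the sham group. The irradiated arrays were all lower, by 1.75 ± 0.33 (adjusted p 5.34e-04), a call lost with spike-in scaling (0.117).

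The feedback and secreted branches of the p53 pathway gave fewer calls. Of 9 tested genes of p53 and its feedback only Ccng1 rose, where 1.13% of all genes rose and 4.08% fell. Mdm2, the ligase that degrades p53, had -1.57, -2.09, -1.65, -1.29 and -1.82 against -3.72, -3.16 and -2.69, which do not overlap, and a difference of 1.5 ± 0.34. It passed with the first scaling (adjusted p 0.00435) but not with the second (0.0748). Gdf15, a stress cytokine, had -3.73, -4.75, -6.32, -2.64 and -5.26 against -9.89, -8.79 and -6.27, so that 1 irradiated array fell within the sham range. With 2 of 6 sham arrays well above background, it rose 15.1-fold (3.92 ± 0.93, adjusted p 0.00665). Of 20 tested metabolic and secreted targets 3 rose (Gdf15, Slc19a2, a thiamine transporter, by 2.97, and Epha2, an ephrin receptor, by 2.59) and 2 fell. Polk, a translesion polymerase, was the 1 of 10 repair targets to rise (1.51), while Ddb2 differed by 0.25 (adjusted p 0.774). In the BCL2 family the survival gene Bcl2l1 fell by 2.15 and the mitophagy receptor Bnip3l by 2.46, both of which are abundant in young red cells. None of the p53 growth arrest, apoptosis, feedback, repair or secreted targets that rose passed with normexp background correction, where Cdkn1a differed by 1.18 (adjusted p 0.573) and the median of all genes was -0.69. With each slide as a block the calls of Ccng1, Gas6, Bbc3, Ei24, Slc19a2 and Epha2 were lost, while those of Cdkn1a, Bax, Aen, Phlda3, Zmat3, Tnfrsf10b, Gdf15 and Polk were kept. Of the scan days that hold both groups, the first has 1 irradiated and 3 sham arrays and the second 3 and 2. Within them the summed level of the growth arrest targets was higher by 1.13 and 1.03, and that of the apoptosis targets by 1.46 and 0.93.

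**Figure D2:**
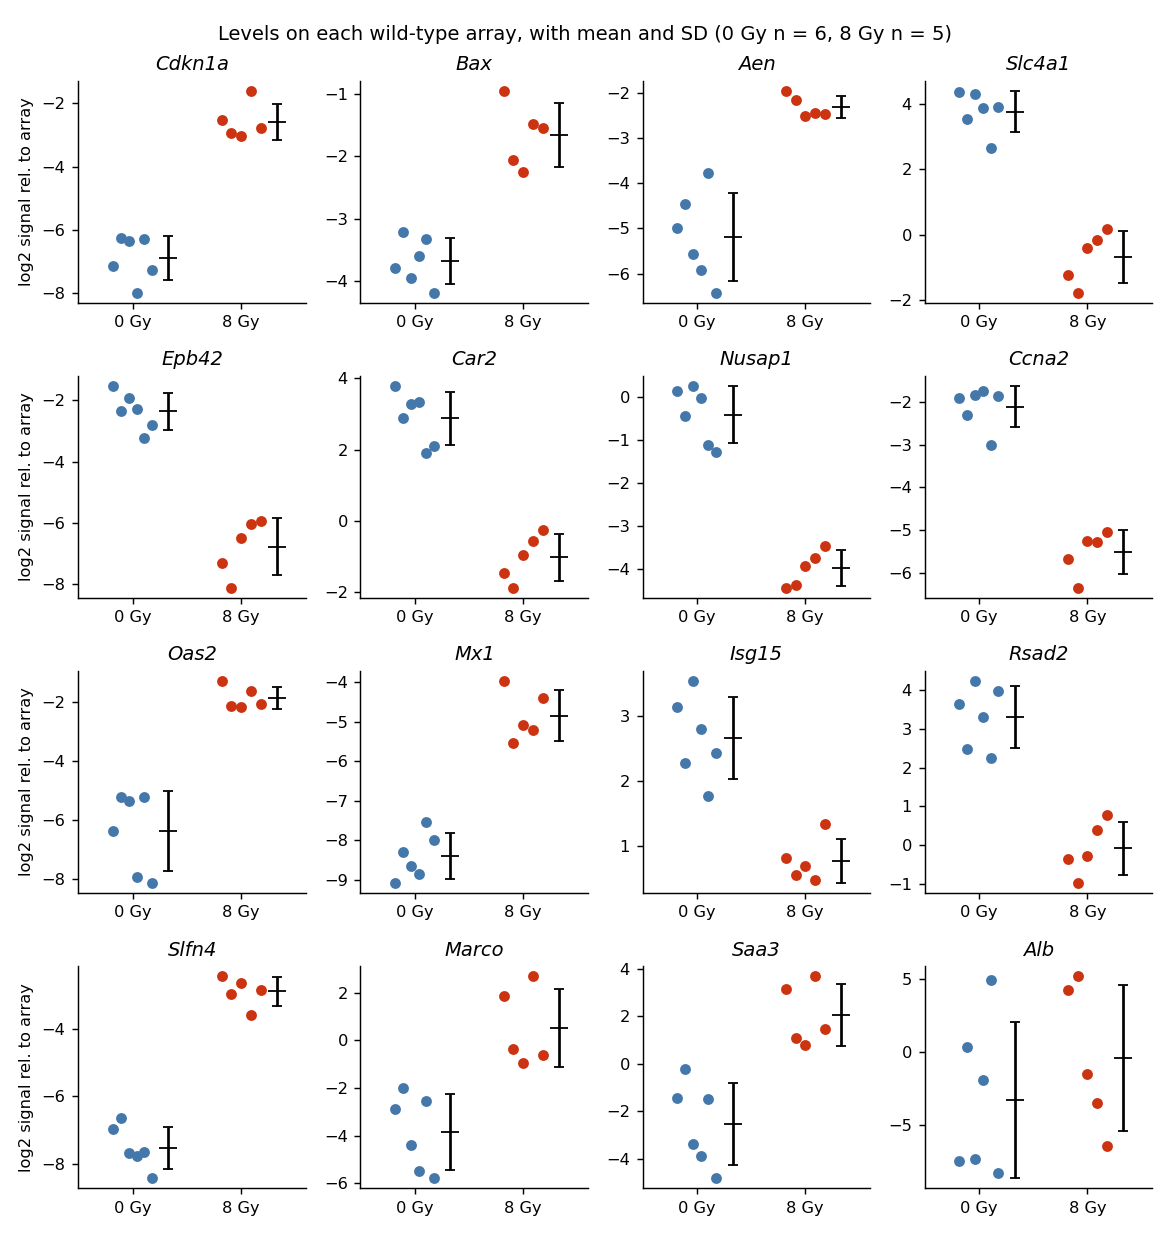
Log2 level of 16 genes on each array of wild-type blood, scaled to the 75th percentile of commonly detected probes, with sham arrays (6) and 8 Gy arrays (5) as points and the mean and SD of each group as bars. Cdkn1a lay between -3.05 and -1.62 after 8 Gy and between -7.97 and -6.24 in the sham group, Slc4a1 went the other way, and Alb spread widely within both groups.

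Genes of the red cell membrane fell more than any other group described here. Of 22 tested membrane and skeleton genes 15 fell and none rose, against 4.08% and 1.13% of all genes, and their median difference relative to all genes was -3.73. Slc4a1, the band 3 anion exchanger, had log2 levels of -1.24, -1.77, -0.42, -0.15 and 0.16 after 8 Gy against 2.64, 3.87 and 4.35 in the sham group. The groups were far apart, and the sham group was 21.8-fold higher (-4.45 ± 0.58, adjusted p 4.66e-06 in limma). Its probe lies at chr11:102210256-102210315 (mm9). Epb42, protein 4.2, which ties band 3 to the skeleton, had -7.31, -8.11, -6.49, -6.02 and -5.94 against -3.24, -2.31 and -1.54, a 21.3-fold fall without overlap (adjusted p 9.33e-08). The irradiated arrays of replicates 1 and 2 were lowest in both genes.

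Ank1, the ankyrin that anchors the skeleton, was well above background on all 6 sham arrays and on no irradiated array, and was at least 27.1-fold lower. Add2, beta adducin, fell by 3.75, the blood group gene Rhd by 3.67 and Epb41, protein 4.1, by 3.57, all without overlap. The members Sptb (0.15), Ermap (-0.04), Aqp1 (0.52), Kcnn4 (-0.62), Gypc (1.12) and the transcription factor Tal1 (0.95), chosen here after their values were seen, did not pass. The summed level of the 22 genes was between 1.16 and 2.72 above that of all genes on the sham arrays and between -1.21 and -0.01 on the irradiated arrays. The difference was -3.15 within the first scan day (1 irradiated against 3 sham arrays) and -2.46 within the second (3 against 2). On both slides with 1 array of each group it was -3.51 and -3.84. These slides hold the liver-bright irradiated replicates 1 and 2, and replicate 1 is also the irradiated array of the first scan day, so the values are not independent.

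Haem synthesis and the globins fell less evenly. Of 16 tested haem genes 5 fell and none rose, against 4.08% and 1.13% of all genes. Slc25a37, mitoferrin-1, which imports iron into mitochondria, had 1.09, 0.63, 1.29, 2.13 and 2.25 against 4.61, 5.63 and 6.04, a 16.5-fold fall without overlap (adjusted p 1.70e-06). Fech, ferrochelatase, which inserts the iron, fell by 2.60, and Urod and Blvrb by 1.49 and 1.55. Alas2, the first enzyme of the erythroid pathway, had 5.67, 5.74, 6.49, 6.41 and 6.72 against 6.18, 7.35 and 7.88. Its groups overlapped, its fall of 1.05 ± 0.30 (adjusted p 0.0244) was lost when any of 5 arrays was left out (irradiated replicates 1 and 2, sham replicates 3, 4 and 6), and it was lost without the liver-bright arrays. Of 6 tested globin genes 3 fell, led by the alpha globin chaperone Ahsp (-3.20). The falls of Hbb-y (-1.20) and Hbq1a (-1.34) overlapped and were lost without any of 5 and 7 arrays, the irradiated replicates 1 and 2 and the sham replicates 1, 4 and 6 among both. Globin transcripts had been depleted before labelling, and the part of that step in these values was not tested. Iron handling gave 1 fall of 12, that of Ncoa4, the receptor that delivers ferritin for degradation (-2.76).

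Enzymes of red cell gas exchange and redox defence and the ubiquitin and autophagy genes of maturing reticulocytes fell together with the membrane genes. Of 17 tested gas exchange and antioxidant genes 12 fell and none rose, and of 22 reticulocyte clearance genes 15 did and none rose. Over all genes 4.08% fell and 1.13% rose. The medians relative to all genes were -2.36 and -2.61. Car2, carbonic anhydrase 2, had -1.47, -1.88, -0.96, -0.56 and -0.27 against 1.89, 3.09 and 3.78, a 15.0-fold fall without overlap. Glrx5, an iron-sulfur cluster protein, fell 7.77-fold, Bpgm, which makes the regulator of haemoglobin oxygen affinity, 7.44-fold, and Gpx1, a glutathione peroxidase, 5.51-fold. Among the clearance genes the hybrid ubiquitin ligase Ube2o fell by 3.49, Ube2h by 3.21, Rnf10 by 3.0 and the deubiquitinase Usp15 by 2.85. Of 14 erythroid transcription factors only Lmo2 (-2.53) and Klf1 (-1.34) fell, and Klf1 was lost without the irradiated or the sham array of replicate 4. Gfi1b (1.31) and the erythropoietin receptor Epor (1.43) passed as higher with the first scaling only. The calls of Slc4a1, Epb42, Ank1, Rhd, Epb41, Slc25a37, Fech, Ahsp, Car2, Glrx5, Bpgm, Gpx1, Ube2o, Ube2h, Rnf10, Usp15 and Lmo2 held under every alternative run for them, the fits without 1 array included.

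Genes outside the red cell lists were also among the 20 largest falls without overlap. Fam117a (-3.84), Prxl2a, a redox-active protein of the peroxiredoxin-like family (-3.69), the protease gene Ctse (-3.64) and Esco2, a cohesin acetyltransferase (-3.56), were among them. Nhlrc4 was at least 3.34-fold lower and the phosphatase gene Dusp8 at least 3.72-fold lower, as neither was well above background on an irradiated array. Vpreb3, a gene of B cell precursors, is described with the lymphocyte genes.

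Genes of mitosis fell in part. Of 23 tested mitotic genes 8 fell and none rose, against 4.08% and 1.13% of all genes, and the median relative to all genes was -0.89. Nusap1, a spindle protein, had -4.44, -4.39, -3.93, -3.74 and -3.46 after irradiation against -1.28, -0.22 and 0.26, a 12-fold fall without overlap (adjusted p 2.64e-07). Ccna2, cyclin A2, had -5.67, -6.35, -5.26, -5.28 and -5.04 against -3.0, -1.89 and -1.74, a 10.6-fold fall. Ube2c, a ubiquitin-conjugating enzyme of mitotic exit, fell by 2.80, Ccnb2, cyclin B2, by 2.44 and Mki67, the proliferation marker Ki-67, by 2.12, all without overlap, of which that of Mki67 was lost with spike-in scaling (adjusted p 0.0666). Other genes of the same list did not pass, among them Ccnb1 (0.48), Plk1 (0.09), Cdc20 (0.33) and Tpx2 (-1.35), chosen after their values were seen. The sham array of replicate 5 had the lowest summed level of its group (-0.67, against 0.18 to 0.52 on the other sham arrays).

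DNA replication genes gave 5 falls and no rise among 28, against 4.08% and 1.13% of all genes. Their median of -0.30 was -0.17 without the irradiated array of replicate 2 and 0.24 with no filter on dim probes. E2f2, a transcription factor of the cell cycle that is high in erythroblasts, fell 12.4-fold, while Uhrf1 (-1.78), Mcm2 (-1.31) and Lig1 (-1.29) fell with overlapping groups. Lig1 was lost without the irradiated array of replicate 1 or 2 or the sham array of replicate 4 or 6. The count was 3 without the irradiated array of replicate 1 or 2 or the sham array of replicate 4, and 1 without the liver-bright arrays. Clustered histones gave 2 falls of 19, double-strand break repair and checkpoint genes 1 rise of 19 (Dclre1c, the Artemis nuclease, 1.55), and the lists on ribosomal proteins, proteasome subunits and the respiratory chain 1 fall of 34, 2 of 31 and 4 of 37, of which the first and second are near the 4.08% of all genes. Psme3, the nuclear proteasome activator, fell by 1.68, and Atp5b and Cox6c by 1.30 and 1.35. Atm and Prkdc did not pass the detection filter and were not tested.

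**Figure D3:**
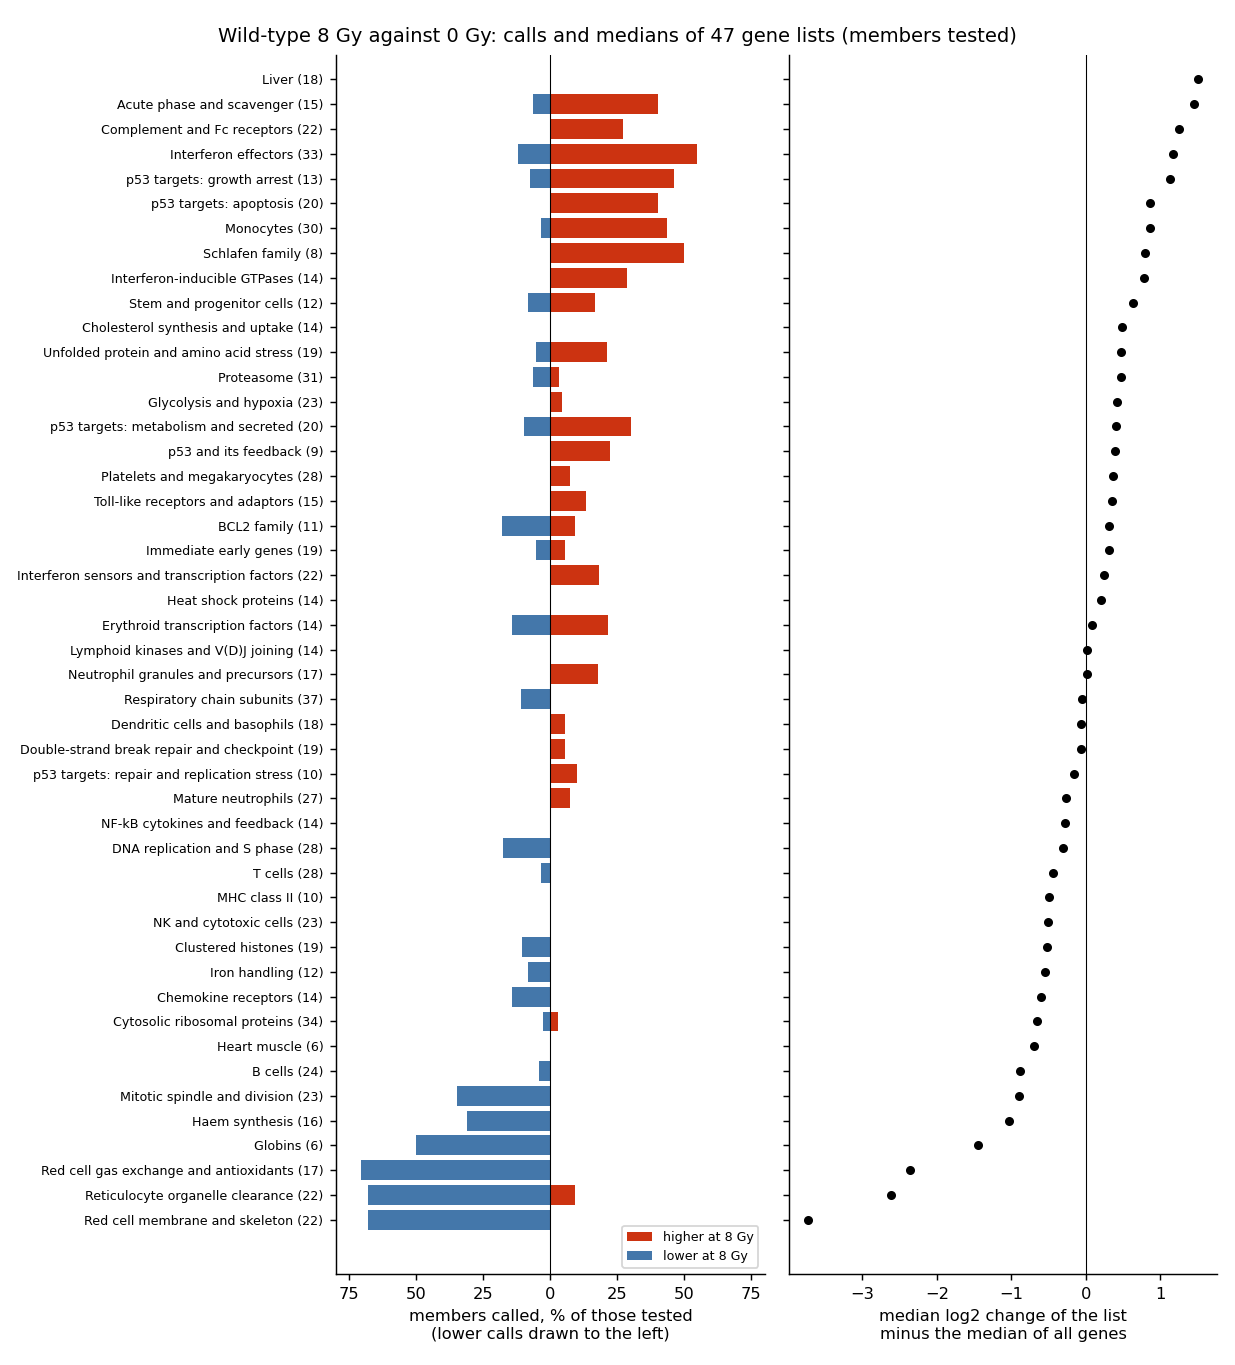
Share of tested genes called higher or lower in each of 47 gene lists (left) and the list's median log2 difference minus that of all genes (right) in wild-type blood after 8 Gy. Red cell membrane genes are lowest with a median of -3.73, followed by reticulocyte clearance genes at -2.61, and the largest positive medians are those of the liver list (1.51, with no gene called) and the acute phase list (1.46), which were -0.21 and 0.94 without the liver-bright arrays.

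Interferon effectors divided into a larger group that rose and a smaller one that fell. Of 33 tested effectors 13 rose and 4 fell, against 1.13% and 4.08% of all genes, and the median relative to all genes was 1.18. Oas2, an oligoadenylate synthetase that senses double-stranded RNA, had log2 levels of -1.29, -2.12, -2.15, -1.61 and -2.07 against -8.11, -5.85 and -5.20. The groups did not overlap, the irradiated arrays varied little, and the difference was 22.7-fold (4.50 ± 0.79, adjusted p 2.67e-04 in limma). Ifit3, a protein of translation control, had -1.91, -2.48, -2.26, -3.82 and -1.74 against -7.26, -6.43 and -5.57, a 14.9-fold rise, and its neighbouring paralog Ifit3b rose by 3.81. Probes of these close paralogs may share signal. Mx1, a dynamin-like antiviral GTPase, had -3.97, -5.54, -5.08, -5.20 and -4.40 against -9.07, -8.48 and -7.53, with only 1 sham array well above background, and rose 11.7-fold.

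Further rises were those of Oas1a (3.51), with 0.00, -0.92, -1.40, -0.62 and -0.67 against -5.39, -4.13 and -3.40, and of its paralog Oas1f (3.05). Ifi27l2a (3.36), Ifi211 (3.06), a DNA sensor of the PYHIN family, Rtp4 (2.97) and Phf11d (2.94) rose without overlap, and Bst2, tetherin (2.63), with overlap. Of the sensors and transcription factors 1 of 22 rose, against 1.13% of all genes. It was Ifih1, the RNA helicase MDA5 (1.86). Irf9 (1.80), Dhx58 (1.55) and Socs1 (1.58) passed with the first scaling only, and Irf7 (-0.92) and Stat2 (1.69, adjusted p 0.0554) passed with neither, both chosen after their values were seen. Of 14 interferon-inducible GTPases Gbp2 rose (2.29).

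The Schlafen genes, a family controlled by interferon in myeloid and lymphoid cells, gave 2 rises among 8, against 1.13% of all genes. Slfn4 had -2.44, -2.96, -2.63, -3.58 and -2.83 against -8.42, -7.67 and -6.65, the largest rise among the genes named by rule, at 24.9-fold (4.64 ± 0.69, adjusted p 2.47e-05). The groups lay far apart, and 3 sham arrays were well above background. Slfn3, well above background on no sham array, was at least 3.09-fold higher. With the first scaling Slfn1 (1.36) and Slfn8 (1.69) passed too.

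The 4 effectors that fell were Rsad2, Isg15, Oas3 and Isg20, of which only Isg15 was named by rule and the others were chosen after their values were seen. Rsad2, the antiviral enzyme viperin, had -0.36, -0.97, -0.27, 0.39 and 0.79 after irradiation against 2.26, 3.48 and 4.23. The groups did not overlap and the fall was 10.6-fold (-3.40 ± 0.46, adjusted p 6.27e-06). Isg15, the ubiquitin-like modifier, had 0.81, 0.55, 0.69, 0.48 and 1.34 against 1.77, 2.63 and 3.54, a fall of 3.72-fold (adjusted p 0.00394) without overlap. Oas3 fell by 2.18 without overlap and Isg20, an exonuclease, by 1.40 with overlap. The promoter windows printed above show the response element in genes of either direction: among the effectors with a promoter it was present in 3 of 6 that rose, 3 of 4 that fell and 2 of 11 that passed neither way.

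With normexp background correction Ifi27l2a was the only interferon effector still called higher (2.53), while Rsad2 (-3.21), Isg15 (-1.77) and Isg20 were still called lower. With each slide as a block the calls of Isg15 (adjusted p 0.134) and Bst2 (0.0727) were lost. The summed level of the 33 effectors was between 0.04 and 0.70 above all genes on the sham arrays and 1.93, 1.31, 1.34, 1.21 and 1.83 on the irradiated ones. The difference within scan days was 1.45 (1 irradiated against 3 sham arrays) and 0.82 (3 against 2).

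**Figure D4:**
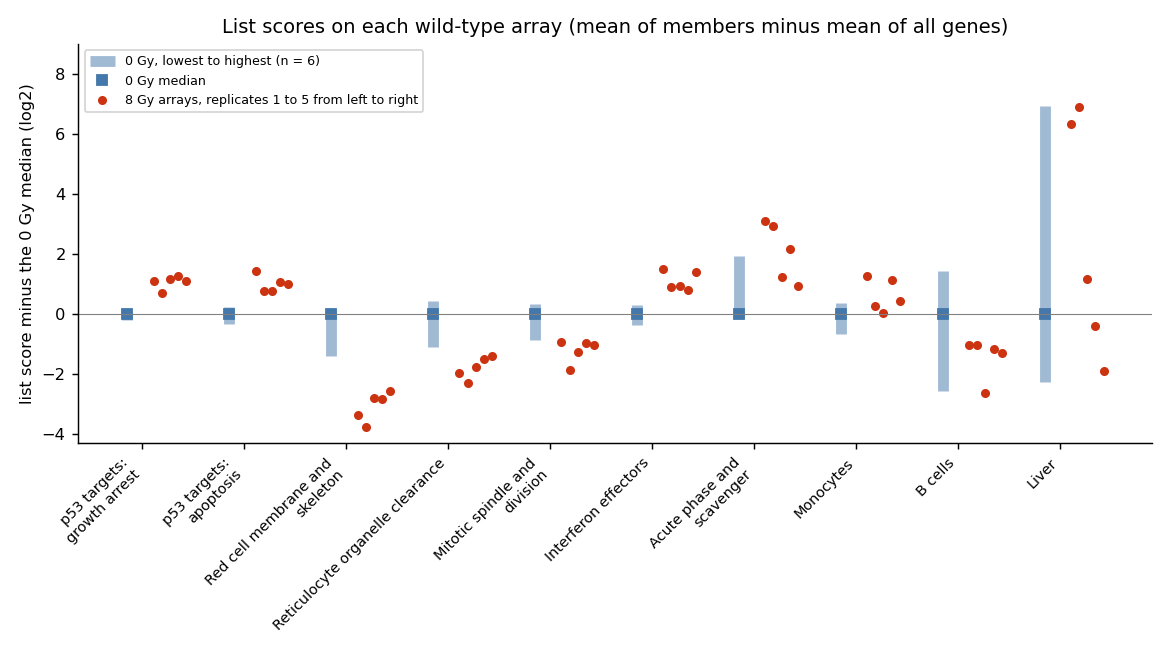
Summed level of 10 gene lists on each array, as the mean log2 level of the tested members minus that of all genes, shown relative to the median of the sham arrays. Red cell membrane genes fell on all 5 irradiated arrays and interferon effectors were higher on all 5, while the liver list reached 6.62 and 7.17 above all genes on the irradiated arrays of replicates 1 and 2 and 7.23 on the sham array of replicate 5.

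Some monocyte, macrophage and acute phase genes rose. The summed level was highest on the irradiated arrays of replicates 1 and 4 for monocyte genes (2.54 and 2.39) and of replicates 1 and 2 for acute phase genes (4.00 and 3.85). Of 30 tested monocyte genes 5 rose and 1 fell, of 15 acute phase and scavenger genes 5 rose and 1 fell, and of 22 complement and Fc receptor genes 4 rose, against 1.13% and 4.08% of all genes. The lists share members (Cfb is in both the acute phase and the complement list), so their counts are not independent. Marco, a scavenger receptor of macrophages, had 1.86, -0.34, -0.96, 2.69 and -0.62 against -5.77, -3.63 and -1.98. The groups did not overlap, and the difference was 20.6-fold (4.36 ± 1.09, adjusted p 0.00976). Saa3, a serum amyloid made outside the liver, had 3.16, 1.1, 0.79, 3.67 and 1.47 against -4.80, -2.43 and -0.23, a 23.8-fold rise (4.57 ± 1.37, adjusted p 0.0322) whose call was lost without any of 5 arrays (irradiated replicates 1 and 4, sham replicates 3, 4 and 6). Saa1, the amyloid of the liver acute phase, had 2.31, 4.16, 0.29, 2.53 and 0.58 against -1.59, -1.12 and -0.78. Its sham arrays varied little and the rise of 3.15 ± 0.54 (adjusted p 1.73e-04) held in every setting tried.

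Msr1, a further scavenger receptor, rose by 2.68 with overlap, Ms4a6d by 2.81, Cd14, the co-receptor for lipopolysaccharide, by 2.50, C1qb of the first complement component by 1.88 and the Fc receptor Fcgr3 by 2.0, these 4 without overlap. Fcgr4, a further Fc receptor, chosen after its values were seen, rose by 1.63. Anxa3 (3.22), Ccl9 (3.08), Mst1r, the receptor of macrophage-stimulating protein (3.26), and Efnb2 (3.08) were among the 20 largest rises without overlap. The call of Ccl9 was lost without the irradiated array of replicate 1 or 4 or the sham array of replicate 4 or 6, and that of Mst1r without the irradiated array of replicate 4. Cfb, complement factor B (3.86), had 0.20, 0.85, -3.86, -1.37 and -2.33 against -8.06, -6.30 and 0.26, so that the groups overlapped, and was lost when any of 7 arrays was left out (irradiated replicates 1, 2 and 4, sham replicates 1, 3, 4 and 6). Cd36 (-2.46) and Ctsb (-1.56), the falls of these lists, were chosen after their values were seen.

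Liver transcripts were bright on the irradiated arrays of replicates 1 and 2 and on the sham array of replicate 5. They were not bright on the irradiated array of replicate 4. None of 18 liver genes passed, and their median ranged from 0.21 to 3.03 when 1 array was left out (without irradiated replicate 2 and sham replicate 5). That of the acute phase genes was 0.92 without irradiated replicate 2, 2.37 without irradiated replicate 5 and 2.33 without sham replicate 5. The summed level of the liver genes was 6.62, 7.17, 1.44, -0.11 and -1.62 on the irradiated arrays against -1.98, 0.28 and 7.23 on the sham arrays. Alb, albumin, had 4.27, 5.18, -1.51, -3.50 and -6.42 against -8.30, -4.61 and 4.94, the last on the sham array of replicate 5, a difference of 2.88 ± 2.51 (adjusted p 0.446). Without the 3 liver-bright wild-type arrays 3 monocyte, 2 acute phase and 2 complement and Fc receptor genes were called higher. Of all 15156 genes 280 were. Marco then differed by 4.47 (adjusted p 0.0560), Saa3 by 4.72 (0.119) and Saa1 by 2.35 (0.0122), and the calls of Msr1, C1qb, Fcgr3 and Ccl9 were lost. With each slide as a block those of Marco (adjusted p 0.105) and Saa3 (0.276) were lost. The part of liver RNA in these values was not tested. Counting with the first scaling alone gave 13, 6 and 6 higher genes in the 3 lists, against 5.16% of all genes. Leaving out the irradiated array of replicate 1 or 4 or the sham array of replicate 4 or 6 brought the monocyte count to 6, 5, 6 and 8. The acute phase count ranged from 3 to 10, with the 10 reached without the sham array of replicate 5, and the complement count from 3 to 11.

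Lymphocyte genes gave few calls, and their levels varied widely among the sham mice. Of 24 tested B cell genes 1 fell and of 28 T cell genes 1 fell, near the 4.08% of all genes, and of 23 NK and cytotoxic genes and 10 MHC class II genes none passed. The median difference relative to all genes was -0.88 for B cell genes (-1.41 to -0.59 when 1 array was left out) and -0.44 for T cell genes. For NK and MHC class II genes it was -0.51 and -0.49. The summed level of B cell genes was -0.83, -0.81, -2.42, -0.95 and -1.07 after irradiation and ran from -2.35 to 1.65 in the sham group. Vpreb3, a surrogate light chain relative of B cell precursors, had -7.62, -7.24, -7.39, -7.48 and -7.38 against -6.72, -3.07 and -1.64. The irradiated arrays were tightly grouped at a level where 2 of 5 were well above background, below all sham arrays, and the fall was 15.2-fold (adjusted p 6.31e-05). Cd8a fell by 2.16 with overlapping groups and was lost without the liver-bright arrays. Ccr6, a chemokine receptor of B cells and T cell subsets, fell by 2.75, and Ackr1, the Duffy chemokine receptor of red cells, by 2.32, both without overlap. Without the liver-bright arrays the call of Ccr6 was lost (adjusted p 0.0667). The B cell receptor component Cd79a differed by -0.81 (adjusted p 0.506) and the T cell receptor component Cd3e by -0.57 (0.233).

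Granulocyte, platelet and stress genes mostly stayed near the median of all genes. Of all genes 1.13% rose and 4.08% fell. Of 27 mature neutrophil genes 2 rose (Fcgr3 and the citrullinating enzyme gene Padi4, 2.58, both lost without the liver-bright arrays), and the neutrophil alarmin S100a8 differed by -0.55 (adjusted p 0.527). No neutrophil granule gene of 17 passed with both scalings. All 28 platelet genes had higher means with the first scaling, where the median difference of all genes was itself 0.41. Their median relative to all genes was 0.37 (0.18 and 0.13 without the sham array of replicate 2 or 5, 0.59 without that of replicate 6). It depended on the processing, with 0.83 for quantile normalization, 1.41 for normexp background correction and 0.22 with each slide as a block. No platelet gene passed with both scalings, and Pf4, platelet factor 4, differed by 0.24. Tubb1 (1.53) and Selp (1.17) passed with the first scaling. None of 14 genes passed in the NF-kB, heat shock or cholesterol lists. Jund, an AP-1 subunit, fell by 2.06 in the list of immediate early genes (adjusted p 0.0655 with spike-in scaling), where Atf3 (1.35) passed with the first scaling only. The unfolded protein list gave no rise and 1 fall, that of Asns, asparagine synthetase (-1.66), lost without the array of sham replicate 1 or irradiated replicate 1 or 4. Heart transcripts, looked up since the blood was drawn by cardiac puncture, gave no call among 6 tested genes.

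The same genes were looked up in the other genotypes. Their arrays did not enter the wild-type means, but they shared the estimate of spread and the choice of scaling probes, and with the 11 wild-type arrays fitted alone 160 of the 172 rises and 504 of the 619 falls were called. The doses differ (4 Gy in ATM-KO, 3 Gy in Scid), so genotype and dose cannot be told apart. In ATM-KO blood 109 genes were called (0.719%) and in Scid blood 180 (1.19%). The 172 genes that rose in wild-type blood had a median, relative to all genes, of 0.61 in ATM-KO and 0.44 in Scid blood, where 144 and 143 of them lay above the median of all genes. The 619 genes that fell had medians of -0.83 and -1.15, with 584 and 607 below it. In wild-type blood, where they were chosen, the medians were 1.85 and -2.13. The test of the difference between responses found no gene for ATM-KO minus wild type or Scid minus wild type at an adjusted p under 0.05 in limma, with 1463 and 1128 genes at an unadjusted p under 0.05. With scan day as a block 35 genes were called for ATM-KO minus wild type. The percentages of called genes for both differences were 0.

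Values of single genes are given side by side. Cdkn1a differed by 4.29 in wild-type, 1.46 in ATM-KO (adjusted p 0.221) and 3.41 in Scid blood (0.00197). Epb42 differed by -4.42, -2.2 (0.0148) and -2.54 (0.00246), and Nusap1 by -3.58, -1.79 and -1.83, which passed in all 3 genotypes. Oas2 differed by 4.50, 0.60 (0.892) and 1.17 (0.640), Slfn4 by 4.64, 2.01 (0.178) and 1.42 (0.446), and Marco by 4.36, 1.56 (0.686) and 1.1 (0.770), which passed in wild-type blood and in neither other genotype. For the lists, the medians relative to all genes were -3.73, -1.18 and -1.72 for red cell membrane genes, 1.14, 0.45 and 0.36 for growth arrest targets, 0.87, 0.52 and 0.49 for apoptosis targets, and 1.18, 0.39 and 0.08 for interferon effectors.

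**Figure D5:**
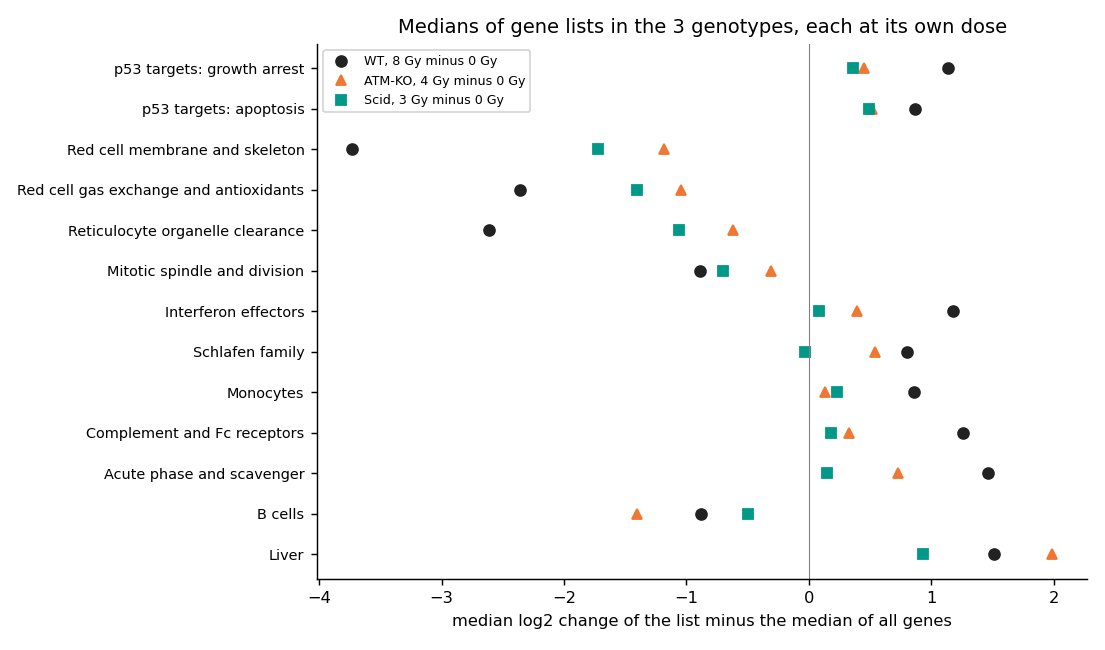
Median log2 difference of 13 gene lists, minus that of all genes, in wild-type (8 Gy), ATM-KO (4 Gy) and Scid (3 Gy) blood against each genotype's own sham group. Red cell membrane genes were at -3.73, -1.18 and -1.72 and interferon effectors at 1.18, 0.39 and 0.08, and the doses differ between the genotypes.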

How the data were processed

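Gene expression was measured on 1-colour Agilent mouse arrays. The deposited scanner files hold intensities, and gProcessedSignal is a background-corrected intensity made by the authors with Agilent Feature Extraction, for which the labels name version 12.0.2 and the headers of the files 11.5.1.1. A deposited value table holds the authors' log2 values and was used as an alternative. Control and outlier spots were left out and spots of a probe averaged. As under 50% of probes were well above background on 28 of 32 arrays, log2 intensities were scaled to the 75th percentile of the 5829 probes well above background on all arrays, with that of all probes as an alternative. Of the probes, 18365 were kept, each well above background on 4 or more arrays of some group, each gene was represented by its brightest probe, and 15156 genes were tested with limma 3.58.1 (R 4.3.3) over all 32 arrays in 6 groups, with Benjamini-Hochberg adjustment. The method was tested on simulated data. Folds called "at least" set a group that was not well above background at the lowest signal that was. The number of arrays limits the precision.

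The members and lists were chosen with earlier results of these data known. Genes were named as the 20 largest rises and 20 largest falls without overlap, up to 4 called genes of each list (or its 2 brightest where none was called) and a fixed set of familiar genes; others are said to be chosen after their values were seen, and a few genes are not reported here. List medians are relative to the median of all genes, which removes the scaling, and a summed level is the mean over a list minus that over all genes. Alternatives were other scalings, background corrections, filters, slide, scan day and replicate blocks, array weights and leaving out each array. Leaving out the 3 wild-type arrays (and 1 ATM-KO array) bright in liver transcripts and using the share of probes above background as a covariate were added after seeing the data.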

Additional observations from a re-analysis of the deposited data

Results flagged for a closer look

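In 20 of 399 groups of 5 or 6 arrays examined, 1 array lay apart from the others by the criterion of Dixon's test, where chance gives about 1 in 20.

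For summed levels of gene lists this held in 8 of 94 groups. On the irradiated array of replicate 2 the p53 growth arrest list was at -0.59 (others -0.19 to -0.02), the p53 feedback list at 0.11 (others 0.45 to 0.54), the NF-kB list at -0.87 (others -0.47 to -0.32) and the lymphoid kinase list at 0.11 (others 0.85 to 1.03). On the irradiated array of replicate 3 the B cell list was at -2.42 (others -1.07 to -0.81), the MHC class II list at -1.36 (others -0.08 to 0.33) and the iron handling list at 2.83 (others 3.05 to 3.14). On the sham array of replicate 5 the mitotic list was at -0.67 (others 0.18 to 0.52).

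Of 305 groups for single genes 12 had such an array. On the sham array of replicate 5, Apoa2, an apolipoprotein of the liver, was at 5.75 (others -0.36 to 1.33), Slc19a2 at -3.89 (others -9.06 to -7.20), Rnf10 at 0.45 (others 1.82 to 2.59), Ackr1 at -4.76 (others -3.60 to -2.93) and Cox6c at 1.72 (others 2.25 to 2.43). On the sham array of replicate 6, Cox7b was at 0.85 (others 1.42 to 1.72) and Hsp90ab1 at 0.28 (others 0.87 to 1.19), and on that of replicate 1 Urod was at 1.31 (others -0.25 to 0.18). On the irradiated array of replicate 2, Atp5b was at 2.50 (others 2.09 to 2.16) and Syk at -1.60 (others -1.05 to -0.99). H2-Eb1 was at -1.72 on the irradiated array of replicate 3 (others -0.16 to 0.35) and Klf1 at -7.75 on that of replicate 4 (others -7.34 to -7.21).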

How the results depend on the processing

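The split of higher against lower calls depends on the scaling. Of the genes called, 55.8% were higher with the percentile of commonly detected probes (median of all genes 0.41), 15.8% with that of all probes (172 higher, 920 lower), 24.8% with quantile normalization (848 genes, 210 higher), 22.0% with the array median (672, 148 higher) and 95.9% with spike-in probes (3957, 3795 higher and 162 lower, median of all genes 1.24). Normexp background correction gave 300 calls (15 higher, 285 lower, median of all genes -0.69), the authors' values 422 higher and 600 lower genes, and no filter on dim probes 848 calls (317 higher, 531 lower). Slide as a block gave 474 (110 higher, 364 lower), scan day 901 (404 higher), array weights 4585 (3443 higher, 1142 lower), omission of the liver-bright arrays 740 (280 higher) and the brightness covariate 691 (264 higher). Leaving out 1 array gave 841 to 2854 calls (320 to 2018 higher, 476 to 836 lower), the most without sham replicate 5, the fewest without irradiated replicate 4, and 847 and 876 without irradiated replicate 1 and sham replicate 4. With scan day as a block 35 genes differed in response between ATM-KO and wild type.

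Same-numbered arrays of the groups did not deviate together in every pair (correlations from -0.72 to 0.35), so the numbers were not taken as pairing. With the replicate block 243 genes were called (49 higher, 194 lower).

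The sign of 29 named genes turned, all with normexp: Atf3 -0.64, Dclre1c -0.72, Dhx58 -0.49, Dnajb9 -0.10, Efnb2 -0.15, Egln3 -0.71, Ei24 -0.50, Epha2 -0.05, Fas -0.06, Gbp3 -0.03, Ifih1 -0.08, Irgm1 -0.02, Ly96 -0.38, Meis1 -0.36, Ms4a6d -0.01, Msr1 -0.10, Mx1 -0.02, Ncf1 -0.14, Polk -0.75, Prtn3 -0.28, Psma6 -0.28, Sdf2l1 -0.14, Sesn2 -0.29, Slc19a2 -0.39, Slfn1 -0.59, Slfn3 -0.35, Socs1 -0.31, Tnfrsf10b -0.65 and Zmat3 -0.13, where the median of all genes was -0.69. The cause was not tested. Of 135 named genes that were called, 98 kept their call without any 1 array. On simulated data for this comparison (15156 genes), changes of 1, 2, 3 and 4 on the log2 scale were recovered for 10, 68, 92 and 92% of 50 genes each, with 7 false calls in all. Smaller changes are thus mostly missed at this number of arrays. The simulated noise was independent between genes and arrays, and the rule of both scalings was not applied. The 7 false calls therefore do not give the number of false calls in the real data.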

Other observations

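Genes of tissue macrophages were chosen after the rise of Marco and their own values had been seen. Their count is therefore a description and not a test. Of 20 such genes 9 rose with both scalings, against 1.13% of all genes. Marco, Msr1 and C1qb were among the 9, while 3 passed with the first scaling only (Adgre1, Axl and Mertk) and 8 did not pass. The other 6 that limma called with both scalings were Timd4, a receptor for phosphatidylserine on resident macrophages (2.71, adjusted p 0.0201), Folr2, a folate receptor (2.77, adjusted p 0.00967), Sdc3, a syndecan (3.26, adjusted p 0.00917), Fabp7 (3.31, adjusted p 0.0240), the chemokine gene Ccl24 (2.82, adjusted p 0.0208) and Il18 (2.20, adjusted p 0.0192). Timd4 had -2.84, -4.73, -5.23, -2.25 and -4.44 on the irradiated arrays against -8.58, -6.28 and -4.87 (lowest, median, highest) on the sham arrays. Sdc3 had -1.76, -3.18, -4.60, -1.53 and -2.83 against -7.37, -6.22 and -4.14. In both genes the irradiated arrays of replicates 1 and 4 were highest and that of replicate 3 lay within the sham range. Adgre1, the F4/80 antigen, showed the same order (3.08, adjusted p 0.0243) but passed with the first scaling only, and Cd5l (3.24, adjusted p 0.0881), C1qa (3.10, adjusted p 0.0515) and Vsig4 (2.83) did not pass, nor did C1qc, Mrc1, Siglec1, Hmox1 and Slc40a1 (0.12, adjusted p 0.909). Of these genes only Folr2 was still called without the liver-bright arrays (2.67, adjusted p 0.0472), where Timd4 differed by 2.91 and Sdc3 by 3.27. Leaving out the irradiated array of replicate 1 or 4 or the sham array of replicate 4 or 6 ended the calls of Timd4, Ccl24, Fabp7 and Adgre1, and that of Il18 was ended without irradiated replicate 1 or 2 or sham replicate 3 or 4.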
